A study of Drosophila melanogaster with 6 samples.

Results

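Short exon skips are unannotated junctions that leave out 1 or a few small exons and whose ends lie under 500 bases apart. Their members are the events listed as exon skipping, with the end minus the start below that limit, over any of the 6 libraries. Rows with the same position and type were taken as 1 event, and reads from both ends of a library were added up. There were 8288 short exon skips among 122483 unannotated events of every type (6.77%) and among 95954 exon skips (8.64%), beside 87666 skips that span 500 bases or more. They lay in 4229 genes, and 172 of them overlapped 2 or more genes.

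The RNA came from 3 pupal tissues of Drosophila melanogaster with the genotype w[1118], which all groups share, staged at 72 h after puparium formation and grown at 27 °C. The groups are indirect flight muscle (IFM), a fibrillar muscle that powers the wings, the dissected brain, and the whole leg, which holds tubular muscle beside epidermis, cuticle and nerves. Each tissue has 2 replicate libraries of polyA RNA, which the study's methods call biological duplicates, without saying how many animals stand behind a library. The sources differ on who made the libraries. In the sample labels IFM went to GENEWIZ, and brain and leg to LC Sciences, while the study's methods name LC Sciences without splitting the tissues. If the labels hold, the provider and the tissue cannot be told apart in a comparison with IFM. Whole tissue was sequenced in bulk, so fewer cells of a type and less RNA per cell cannot be told apart either.

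In exon skipping, the splicing machinery joins the donor of an upstream exon to the acceptor of a later exon, and the exon between them is removed with both flanking introns. Most fly introns are short, and splice sites are then thought to be paired across the intron rather than across the exon. Muscle is known for dense alternative splicing of sarcomere genes, and the brain for that of channel, receptor and synaptic genes. A skip of a coding exon keeps the reading frame only where the left-out length is a multiple of 3. The start given here is the last base of the upstream exon on the BDGP6 build and the end is the first base of the downstream exon, in genome order.

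Most short skips left out a single exon, most left out coding sequence, and most had short introns on both sides. Of 8239 short skips with an exon structure in the annotation, 91.7% left out 1 exon, 8.11% left out 2 and 0.158% left out 3, whereas 22.1% of the longer skips left out a single exon. Single left-out exons had a median length of 166 bases, from 1 to 400 bases, against 285 bases in longer skips. The shorter of the flanking introns had a median of 60 bases and the longer a median of 69 bases, against 77 and 897 bases for longer skips. Both introns were under 100 bases in 71.3% of short skips and in 13.5% of longer skips. These lengths follow in part from the span limit itself and are given as a description.

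The left-out sequence was coding in 90.05% of short skips, touched the coding start or end in 6.11% and was untranslated in 2.52%. Its coding length was a multiple of 3 in 37.4% of 7419 short skips and in 38.3% of 60528 longer skips. Among short skips with at least 150 reads in a tissue, 96 of 250 coding skips in IFM, 22 of 64 in brain and 19 of 38 in leg were multiples of 3. Weighted by reads, such skips made up 49.3% of coding skip reads in IFM, 35.02% in brain libraries and 37.8% in leg libraries. Without the most read skip of each tissue, in fln for IFM and in RpS3A for the others, these were 44.2%, 37.8% and 44.6%. Longer skips gave 48.1% in IFM, 39.1% in brain and 39.6% in leg by reads. Of coding longer skips with at least 150 reads in the tissue, 40.9%, 40.5% and 41.1% were multiples of 3.

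Annotated donors ended 98.8% of short skips and annotated acceptors 98.5%, against 98.4% and 97.7% of longer skips. The study's tool, fortuna, joins annotated donors and acceptors in new ways, so these shares follow largely from the method. A later Ensembl annotation held the junction of 16 of them (0.193%). Where 1 exon was left out, every annotated transcript over the span had an exon within it in 93.2% of short skips, against 86.8% of longer skips. That exon need not be the same in each transcript. Only junctions outside the annotation are listed as events, so high shares of this kind are largely built in. Most short skips, 7772, were listed as exon skipping alone, while 243 were also listed as an alternative donor, 187 as an alternative acceptor and 68 as an intron in an exon. A splice site was shared with another short skip in 1933 of them (23.3%), so members of 1 gene are not independent. Of the genes with a short skip, 2335 held 1 and 1894 held 2 or more, and the cuticle protein gene Cpr47Ef held the most, 29.

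**Figure D1:**
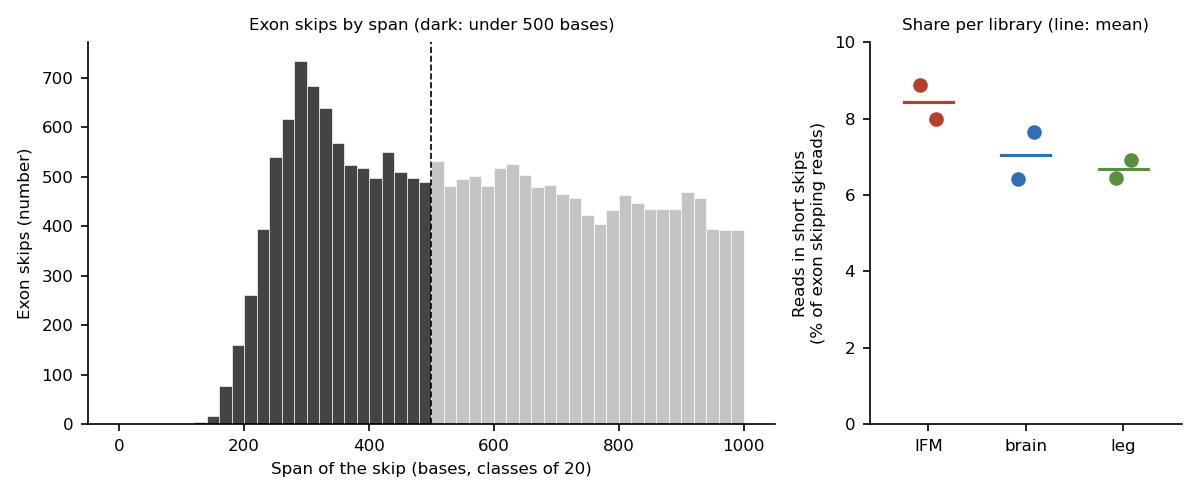
The left plot counts exon skips by span in classes of 20 bases up to 1000 bases, with skips under 500 bases dark, and the right plot gives the percent of exon skipping reads in short skips for each library, with lines at the tissue means. The IFM libraries sit at 7.99% and 8.90%, above the 4 other libraries, which run between 6.43% and 7.65%.

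Short skips took a slightly larger share of exon skipping reads in IFM than in the other tissues. The IFM libraries held 142285 and 252680 reads over short skips, the brain libraries 44123 and 39868 and the leg libraries 31274 and 32399. As a percent of all exon skipping reads this was 8.90% and 7.99% in IFM, against 6.43% and 7.65% for brain and 6.46% and 6.91% for leg, each with a 95% Wilson interval of at most ± 0.0726 points for counting error only. Both IFM libraries lay above all others, while brain and leg overlapped. The mean was 8.45% ± 0.64 in IFM against 6.68% ± 0.32 in leg and 7.04% ± 0.86 in brain (SD, n = 2 each), and the two-sided exact permutation test gave p = 0.3333 for IFM against leg and for IFM against brain, the smallest p that 2 against 2 libraries allow. For brain against leg the same exact permutation test gave p = 1. The order of IFM and brain depended on the read end, since with read end 1 only the mean was 5.67% in IFM against 6.57% in brain and 5.54% in leg.

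Depth and cell types differed between the tissues. The libraries held from 554656 to 3507067 reads over all unannotated events, with both IFM libraries the deepest. Markers listed for IFM (fln, Act88F, TpnC4 and Mhc, all 4 with counts) summed to 188682 and 289260 exon CPM in IFM. The sums were 6304 and 4125 in the brain and 58833 and 59089 in the leg. Mhc, the muscle myosin heavy chain gene, made up 5684 and 3860 of the brain sums and 56428 and 56707 of the leg sums. The next highest in leg, Act88F, had 1745 and 1807 there, so the leg sums do not measure flight muscle. Neuronal markers, 4 of 5 with counts, summed to 5251 and 3788 exon CPM in brain and stayed under 400 in the other libraries, and the defining neuronal gene elav had no exon counts. Tubular muscle markers summed to 36774 and 41725 exon CPM in leg against 3968 and 3054 in IFM. Markers of blood cells and fat body reached 1012 and 830 exon CPM in IFM against 193 and 132 for brain and 273 and 377 for leg, and markers of sperm and testis 217 and 80.3 in IFM against at most 11.9 elsewhere; the part of either in the results below was not tested.

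Reads were concentrated in few short skips. Across all libraries, 1314 short skips had 1 read, 2423 had reads in 1 library only, and the median was 7 reads, as among longer skips. Only 1261 had at least 50 reads over the libraries and entered the tests, and these held 87.3% of the reads. In the 2 libraries of a tissue together, 291 short skips in 246 genes had at least 150 reads in IFM, 79 in 75 genes in brain and 45 in 43 genes in leg. They made up 8.26% of all events at that level in IFM, 4.97% in brain and 4.48% in leg. IFM shared 22 of its 291 with leg, which is 7.56% of the IFM set and 48.9% of the leg set. IFM shared 26 with brain, 8.93% of the IFM set and 32.9% of the brain set, and 11 reached 150 reads in all 3 tissues. Such overlaps were not counted over events of every type, so they are not given as a trait of short skips. IFM was the deepest tissue, and with the minimum scaled to the exon counts of each tissue, at 217.3 reads for IFM, 110.1 for brain and 122.6 for leg, the numbers were 211, 116 and 64.

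The best read short skip of IFM lay in a sarcomere gene, and fln, wupA and Zasp52 were the sarcomere genes among its 10 most read. In fln, which encodes flightin of the flight muscle thick filament, a skip on chromosome 3L from 19990086 to 19990371 left out a coding exon of 156 bases, a multiple of 3. Both annotated transcripts over it have an exon within the span. The event is also listed as an intron in an exon. The IFM libraries held 11050 and 20815 of its reads, against 7 and 2 in brain libraries and 18 and 21 in leg libraries. IFM stood far apart from both, and this skip alone held 8.07% of the short skip reads of IFM. Log2 fold changes are of event reads scaled by TMM factors, and adjusted p-values come from edgeR's quasi-likelihood test, adjusted by Benjamini-Hochberg over all 16595 events with at least 50 reads and called at 0.05 or less. For fln the log2 fold change was 8.13 over leg (SE 0.51, adjusted p = 3.05e-05) and 10.73 over brain (adjusted p = 1.26e-05). Exon counts of the whole gene, the locus, were also far higher in IFM, at 19309 CPM (counts scaled by library total and TMM factor) against 100.6 in brain and 468 in leg. Relative to them the difference was 2.78 over leg (adjusted p = 0.00187) and 3.19 over brain (adjusted p = 0.00186).

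GstS1, a glutathione S-transferase, carried the next best read skip, from 17094458 to 17094765 on chromosome 2R, which left out 168 coding bases. All 4 transcripts over it have an exon within the span. This skip had 8061 and 19295 reads in IFM libraries, against 0 and 1 in brain libraries and 7 and 0 in leg libraries. Leg and brain were near 0 alike. The log2 fold change over leg was 10.34 (SE 0.94, adjusted p = 8.98e-05), and relative to the locus it was 4.99 (adjusted p = 0.00305). Against the single brain read the normalized ratio was 13452, with a counting interval of 2414 to 531341. A neighbouring skip in the same gene, from 17094228 to 17094517, had 157 and 363 reads in IFM libraries, against 1 and 2 in brain libraries and 24 and 10 in leg libraries, and moved the other way relative to the locus, with a log2 value of -3.002 for IFM over leg (adjusted p = 0.00715).

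In wupA, the troponin I gene, the skip from 18106548 to 18106888 on the X chromosome left out 142 coding bases, a length that is not a multiple of 3. All 13 transcripts over it have an exon within the span. Reads numbered 6892 and 13292 in IFM libraries, against 155 and 113 in brain libraries and 462 and 524 in leg libraries. The 3 tissues did not overlap. IFM was higher by 2.81 over leg on the log2 scale (adjusted p = 0.000299) and by 5.19 over brain (adjusted p = 2.04e-05), and relative to the locus by 2.21 and 1.78 (adjusted p = 0.00193 and 0.00509). Per 1000 counts of the left-out exon this skip had 41.8 reads in IFM, against 4.91 for brain and 3.97 for leg.

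Zasp52, a PDZ and LIM domain protein of the Z-disc, behaved differently. Its skip from 15763270 to 15763646 on chromosome 2R, of a 240 base exon, had 2163 and 4768 reads in IFM libraries, against 23 and 33 in brain libraries and 856 and 866 in leg libraries. IFM and leg did not differ in the test (log2 fold change 0.44, adjusted p = 0.345), while brain was lower than leg by a log2 fold change of -5.41 (adjusted p = 0.000297). Relative to the locus it was lower in IFM than in leg (-1.14, adjusted p = 0.0472). The muscle LIM protein gene Mlp60A held skips of both directions. The skip of 2 exons between 24076283 and 24076654 on chromosome 2R had 972 and 1591 reads in IFM libraries, against 8 and 0 in brain libraries and 9 and 16 in leg libraries, and was higher in IFM than in leg by 5.15 (adjusted p = 0.000823). The one from 24075069 to 24075449 had 64 and 81 reads in IFM libraries, against 75 and 29 in brain libraries and 150 and 148 in leg libraries, and was lower in IFM than in leg with a log2 value of -2.51 (adjusted p = 0.00349), or -4.03 relative to the locus (adjusted p = 0.00108).

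**Figure D2:**
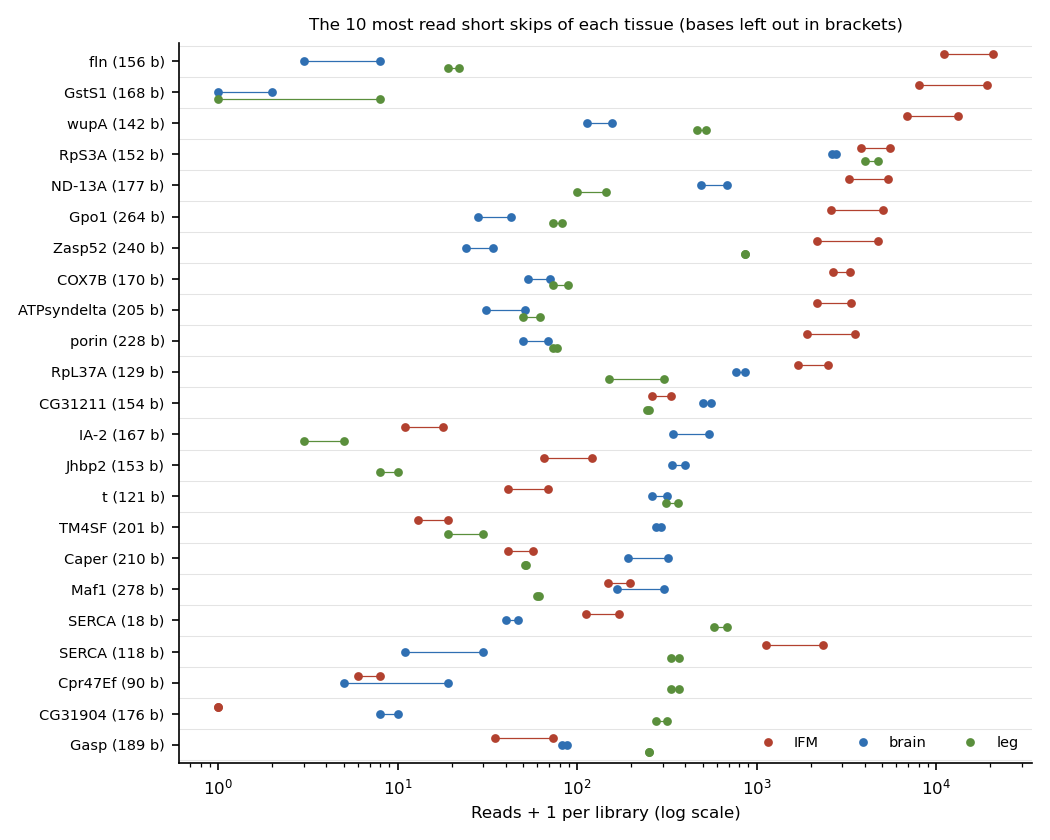
Each row is 1 of the 10 most read short skips of a tissue, named by its gene with the left-out bases in brackets, and points joined by a line are the 2 libraries of IFM, brain and leg on a log scale of reads plus 1. The skip in fln runs from 11050 to 20815 reads in IFM, while the skip of 18 bases in SERCA and those in Cpr47Ef, CG31904 and Gasp are highest in leg.

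Of 32 short skips in sarcomere genes that were tested, 18 were higher and 2 lower in IFM than in leg, and 29 were higher and none lower in IFM than in brain (3 did not pass). Brain had none higher and 18 lower than leg. With the locus as offset, where 30 of them were tested, 10 were higher and 3 lower in IFM than in leg, 7 were higher and 2 lower in IFM than in brain, and none was called for brain against leg. With that offset, 13.5% of all events were higher and 9.82% lower in IFM than in leg, and 11.6% and 12.7% in IFM than in brain. In event reads, 24.7% of all events tested were higher and 18% lower in IFM than in leg, and 33.3% were higher and 30.2% lower in IFM than in brain. Between brain and leg 18.4% were higher and 16.4% lower in brain. In either direction the shares were 42.7%, 63.5% and 34.8%. The median log2 fold change was 2.37 for IFM over leg, against 1.02 over all short skips tested, and 5.93 for IFM over brain, against 0.93. The members higher than in leg included skips in Actn (alpha-actinin), Mf (myofilin), Strn-Mlck (a thick filament kinase family protein), sls (a titin-like spring) and up (troponin T, a skip of 93 bases). Another up skip, of 81 bases, from 13594908 to 13595150 on the X chromosome, had 899 and 1732 reads in IFM libraries, against 36 and 2 in brain libraries and 205 and 156 in leg libraries, and passed against brain (5.12, adjusted p = 0.000679) and not against leg (1.33, adjusted p = 0.149). In Mhc, the muscle myosin heavy chain gene, a skip of 99 bases had 35 and 89 reads in IFM libraries, against 10 and 8 in brain libraries and 18 and 18 in leg libraries, few beside a locus of 151129 CPM in IFM. Sarcomere skips took 17.9% and 19.6% of the short skip reads of the IFM libraries, against 0.941% and 0.650% for brain and 6.70% and 6.50% for leg. The list was drawn up with earlier results of these data known, so its direction is not independent evidence.

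Genes of muscle calcium handling and membranes held 12 tested skips, of which 4 were higher and 1 lower in IFM than in leg, and 9 were higher and 1 lower in IFM than in brain. Shares over all events were 24.7% higher and 18% lower against leg, and 33.3% and 30.2% against brain. SERCA, which pumps calcium back into the sarcoplasmic reticulum, held 2 skips with unlike tissue patterns. The skip of a 118 base exon, between 23929431 and 23929682 on chromosome 2R, had 1131 and 2336 reads in IFM libraries, against 29 and 10 in brain libraries and 333 and 369 in leg libraries. The skip of an 18 base exon, from 23932488 to 23932667, had 111 and 171 reads in IFM libraries, against 46 and 39 in brain libraries and 578 and 686 in leg libraries. Leg was thus above IFM for the small exon and below it in read number for the larger, where the test did not separate them (0.75, adjusted p = 0.181). For the small exon the log2 fold change of IFM over leg was -3.67 (SE 0.39, adjusted p = 0.000163). Relative to the locus, whose exon counts were 6304 CPM in IFM and 28388 in leg, the 118 base skip was higher in IFM by 2.93 (adjusted p = 0.00255) and the 18 base skip lower with a log2 value of -1.49 (adjusted p = 0.0195). In jp, which encodes junctophilin of the muscle membrane junctions, a skip of 137 bases had 415 and 646 reads in IFM libraries and none in leg or brain, at least 124-fold higher than leg and at least 174-fold higher than brain with a floor of 3 counts over the tissue. Amph, amphiphysin of the T-tubules, had a skip of 2 exons with 386 and 900 reads in IFM libraries, against 67 and 34 in brain libraries and 25 and 27 in leg libraries (3.05 over leg, adjusted p = 0.00108).

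Skips in energy metabolism genes were mostly higher in IFM, with 12 of 16 tested above leg and 13 of 16 above brain, and none below either. Among all events 24.7% were above leg and 33.3% above brain. Median log2 fold changes were 3.49 over leg and 3.99 over brain. Gpo1, the mitochondrial glycerol-3-phosphate dehydrogenase, had 2609 and 5053 reads in IFM libraries over a skip of 2 exons from 15860119 to 15860601 on chromosome 2R, against 27 and 42 in brain libraries and 81 and 72 in leg libraries. IFM exceeded leg by 4.10 (adjusted p = 0.000144), and by 1.38 relative to the locus (adjusted p = 0.0308), but with read end 1 only the difference over leg was 0.81 and did not pass (adjusted p = 0.448). The skip in porin, the channel of the outer mitochondrial membrane, had 1907 and 3531 reads in IFM libraries, against 49 and 68 in brain libraries and 76 and 72 in leg libraries, and kept a difference of 1.94 over leg relative to the locus (adjusted p = 0.00797), while with read end 1 only the value over leg was 1.04 (adjusted p = 0.0994). UQCR-C1 and UQCR-C2, core subunits of complex III, showed the other outcome: both were higher in IFM than in leg in reads, by 2.49 (adjusted p = 0.0016) and 4.11 (adjusted p = 0.00039), while relative to the locus they gave 0.0036 (adjusted p = 1) and 1.37 (adjusted p = 0.0626).

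Outside that list, ND-13A, a complex I subunit, held a skip of 177 bases on chromosome 2L from 5099673 to 5100010 with 3275 and 5369 reads in IFM libraries, against 685 and 489 in brain libraries and 99 and 143 in leg libraries. Brain lay between the others. Per 1000 counts of the left-out exon the reads were 178 in IFM, 131 in brain and 27.2 in leg. Relative to the locus, brain exceeded leg by 2.24 (adjusted p = 0.0187) and IFM exceeded leg by 1.43 (adjusted p = 0.0209), whereas IFM over brain gave -0.81 (adjusted p = 0.11). COX7B of complex IV, ATPsyndelta of the ATP synthase and ND-B17.2 of complex I also carried skips that were higher in IFM than in leg, by 3.75, 4.13 and 5.80 (adjusted p = 0.000182, 0.000128 and 8.78e-05).

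Ribosomal protein and translation genes held 30 tested skips, 16 higher and 4 lower in IFM than in leg and 19 higher and 4 lower in IFM than in brain. All events gave 24.7% higher and 18% lower against leg, and 33.3% and 30.2% against brain. The most read short skip of brain and of leg lay in RpS3A, on chromosome 4 from 66738 to 67048. It is also listed as an alternative acceptor, and 1 of 3 transcripts over it contains the 152 base exon. IFM libraries had 3814 and 5553 reads, brain libraries 2619 and 2785 and leg libraries 4011 and 4724. No library had under 2619 reads, and after scaling IFM was lower than leg with a log2 value of -1.40 (SE 0.31, adjusted p = 0.00589) and brain lower than leg with a log2 value of -1.18 (adjusted p = 0.0145). Read end 1 gave only 2.00% of these reads, and with read end 1 alone the IFM over leg value was 0.089 (adjusted p = 0.878), so this call and its direction rest on read end 2, and brain over leg no longer passed (-1.21, adjusted p = 0.0539). With both ends IFM over brain was -0.23 (adjusted p = 0.53). Relative to the locus, IFM was lower than leg (-1.75, adjusted p = 0.0045) and lower than brain (-1.74, adjusted p = 0.0044), while brain over leg gave -0.0088 and did not pass. RpL37A had 1690 and 2506 reads in IFM libraries, against 863 and 768 in brain libraries and 149 and 302 in leg libraries. There, brain was higher than leg by 2.19 relative to the locus (adjusted p = 0.0311). Skips in RpS18 and RpL13 were higher in IFM than in leg in both kinds of fit, by 3.14 and 4.87 in reads (adjusted p = 0.000485 and 0.00123) and by 2.79 and 4.44 relative to the locus (adjusted p = 0.00193 and 0.00427).

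Only 3 skips in splicing regulators had enough reads. Rbp9, an RNA-binding protein of the ELAV family, had 146 and 287 reads in IFM libraries over the skip of a 92 base untranslated exon on chromosome 2L from 2960835 to 2961221, and none in leg or brain, at least 50.6-fold and 71.0-fold higher. The hnRNP gene sqd had a skip with 73 and 113 reads in IFM libraries, against 9 and 5 in brain libraries and 5 and 5 in leg libraries, higher in IFM by 2.69 over leg (adjusted p = 0.00787). The skip in fl(2)d passed against neither tissue, with values of 0.63 and 1.003 (adjusted p = 0.367 and 0.127). Among axon guidance and cytoskeleton genes 2 of 4 tested skips, in Fas1 and betaTub60D, were higher in IFM than in leg and in brain, beside 24.7% and 33.3% of all events.

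Neuronal channel, receptor and pump genes had skips that were mostly higher in brain. Of 17 tested skips, 1 was higher and 14 lower in IFM than in brain, and 16 were higher and none lower in brain than in leg, with medians of -3.91 and 3.94. Of all events, 33.3% were higher and 30.2% lower in IFM than in brain, and 18.4% higher and 16.4% lower in brain than in leg. Against leg, 3 were higher and 2 lower in IFM, and with scaling by total event reads 1 was higher and 3 lower, so no direction is given for that comparison. Relative to the locus the list did not keep these sides, with 4 of 17 higher and 2 lower in IFM than in brain, 4 higher and 2 lower in IFM than in leg, and none called for brain against leg. Shares over all events with a locus value were 11.6% and 12.7% against brain and 13.5% and 9.82% against leg. For brain against leg 2.33% were called. In kcc, a potassium-chloride cotransporter, a skip of 2 exons on chromosome 2R from 23912834 to 23913268 had 2 and 5 reads in IFM libraries, against 177 and 168 in brain libraries and 12 and 8 in leg libraries. Brain exceeded leg by 3.62 (adjusted p = 0.00104), but relative to the locus the value was -0.82 (adjusted p = 0.449). GABA-B-R1, a metabotropic GABA receptor, had a skip of 2 exons with 0 and 0 reads in IFM libraries, against 92 and 81 in brain libraries and 2 and 0 in leg libraries, and IFM was at least 117-fold lower than brain. The skip that ran against the list was in slo, a calcium-activated potassium channel, where 22 and 37 reads in IFM libraries stood against none in leg or brain. This slo skip, of 220 bases, was at least 9.67-fold higher in IFM than in brain, although the exon counts of the locus were 434 CPM in IFM and 920 in brain.

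Synaptic release genes gave 3 of 7 skips higher in brain than in leg, in nSyb, Rab3 and unc-13, and none lower. Of all events, 18.4% were higher and 16.4% lower in brain. nSyb, the neuronal synaptobrevin, had 3 and 7 reads in IFM libraries, against 155 and 105 in brain libraries and 2 and 0 in leg libraries over a skip of 52 bases. Rab3, a synaptic vesicle GTPase, had 0 and 7 reads in IFM libraries, 151 and 106 in brain and none in leg, at least 61.1-fold higher in brain than in leg. IFM was lower than brain in 4 of the 7 skips and higher in 1, in Spn (spinophilin), beside 30.2% and 33.3% of all events. Several genes outside the lists were also highest in brain. IA-2, a tyrosine phosphatase family protein that in mammals sits on dense core vesicles, had 10 and 17 reads in IFM libraries, against 543 and 341 in brain libraries and 2 and 4 in leg libraries. Brain exceeded leg by 6.66 (SE 0.58, adjusted p = 0.000298), and by 2.67 relative to the locus (adjusted p = 0.0398). Pal2, a lyase of peptide amidation, held a skip of 114 bases with 121 and 87 reads in brain libraries and none in IFM or leg, at least 141-fold above IFM and 49.4-fold above leg. CG31211 was read in all 3 tissues, at 259 and 331 in IFM libraries, against 555 and 500 in brain libraries and 244 and 251 in leg libraries, and was lower in IFM than in brain with a log2 value of -1.83 (adjusted p = 0.00188).

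Skips in cuticle and tracheal genes were lower in brain than in leg, and mostly so in IFM. All 6 tested skips of that list, in Cpr47Ef, kkv and Cht7, were lower in brain than in leg, and 4 were lower and none higher in IFM than in leg. With scaling by total event reads these counts were 3 and 5. Of all events, 16.4% were lower in brain than in leg and 18% lower in IFM than in leg with TMM. Relative to the locus none of the 6 was called for brain against leg, with a median of -0.01, and 1 was lower and none higher in IFM than in leg. Of all events with a locus value, 2.33% were called for brain against leg and 9.82% were lower in IFM than in leg. In Cpr47Ef, a chitin-binding cuticle protein, a skip of 2 exons of 90 bases in all, on chromosome 2R from 11267863 to 11268196, had 7 and 5 reads in IFM libraries, against 4 and 18 in brain libraries and 333 and 369 in leg libraries. IFM was lower than leg with a log2 value of -7.28 (SE 0.78, adjusted p = 0.000163) and brain lower than leg with a log2 value of -5.43 (adjusted p = 0.000774), and relative to the locus the values were -2.46 (adjusted p = 0.0323) and -2.47 (adjusted p = 0.0839). Gasp, a chitin-binding protein of trachea and cuticle, had 34 and 72 reads in IFM libraries, against 81 and 87 in brain libraries and 252 and 251 in leg libraries (-3.79 for IFM over leg, adjusted p = 0.000234). CG31904 had no read in IFM, 9 and 7 in brain libraries and 273 and 317 in leg libraries, and IFM was at least 561-fold lower than leg. Its locus was also low in IFM, at 2.92 CPM against 145 in leg. In stac (staccato), a Munc13-4 relative of tracheal tube fusion, a skip of 366 bases had no read in IFM, 19 and 10 in brain libraries and 110 and 73 in leg libraries. Here the exon counts of the locus were alike in IFM and leg, at 116 and 127 CPM, and IFM was at least 174-fold lower in reads. An overlapping stac skip of 74 bases had 20 and 49 reads in IFM libraries and none in leg or brain, at least 8.06-fold higher than leg.

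**Figure D3:**
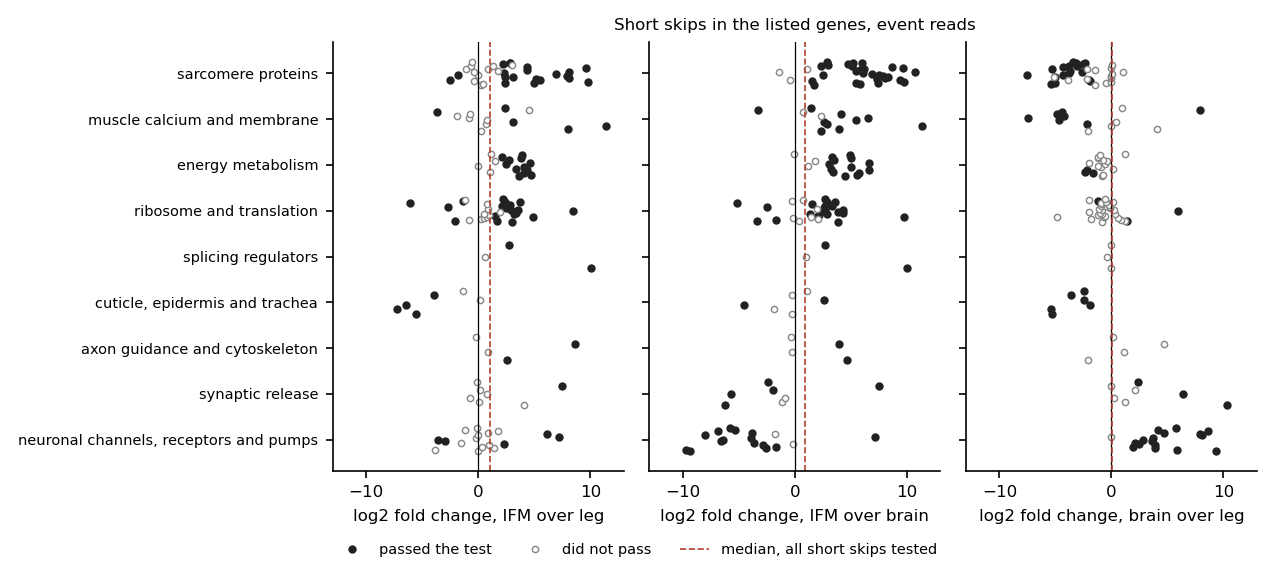
Points are short skips with at least 50 reads in the listed genes, placed by their log2 fold change in event reads for IFM over leg, IFM over brain and brain over leg, filled where the adjusted p is 0.05 or less. The dashed lines mark the medians of all short skips tested, 1.02, 0.93 and 0.03, and the sarcomere row lies mostly to the right of them in the IFM plots while the neuronal row lies to the left in IFM over brain.

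Across all short skips tested, 415 were higher and 174 lower in IFM than in leg, together 589 of 1261 (46.7%). Over events of every type 42.7% passed, 24.7% higher and 18% lower in IFM, against 32.9% and 13.8% of the short skips. The median log2 fold change was 1.02 over the short skips and 0.32 over all events. A total of 470 were higher and 281 lower in IFM than in brain, 751 of 1261 (59.6%), against a background of 63.5%, with 33.3% higher and 30.2% lower. Between brain and leg 159 were higher and 151 lower in brain, 310 of 1261 (24.6%), against a background of 34.8%, with 18.4% higher and 16.4% lower. The tests were edgeR's quasi-likelihood test with Benjamini-Hochberg adjustment over all 16595 events. The excess of higher over lower calls in IFM depends on scaling. With total event reads in place of TMM factors, which range from 0.574 in IFM to 1.49 in brain, the median of all events moved. It moved by -0.72 for IFM over leg, -1.11 for IFM over brain and 0.29 for brain over leg. The splits of short skips were then 281 higher and 256 lower, 319 and 406, and 185 and 119. Over all 16595 events they were 2777 and 4445, 3791 and 6742, and 3523 and 2221. Medians of the short skips were then 0.23, -0.21 and 0.33, against -0.39, -0.87 and 0.29 over all events. Short skips thus stayed above all events in both comparisons with IFM. With 1 library of a compared tissue left out, fewer short skips were tested and fewer were called in every comparison. The share called over all events fell there as well.

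Gene lists kept their sides under that other scaling with few exceptions. Sarcomere skips were then 15 higher and 2 lower in IFM than in leg and 22 higher and 2 lower in IFM than in brain, energy metabolism skips 10 and 0 over leg and 12 and 0 over brain, and ribosomal skips 10 and 5 over leg and 12 and 5 over brain. Calcium and membrane skips gave 3 higher and 2 lower in IFM than in leg, where the median turned to -0.11 against 0.71 with TMM. Synaptic skips had a median of -0.63 for IFM over leg with totals and 0.18 with TMM.

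Fewer skips differed between tissues once each was set against its own gene. For 1151 short skips with a locus value, the exon counts of the gene entered the fit as an offset. Then 169 were higher and 68 lower in IFM than in leg, 20.6% against a background of 23.3% (13.5% higher, 9.82% lower). Against brain, 147 were higher and 107 lower in IFM, 22.1% against a background of 24.4% (11.6% higher, 12.7% lower). Only 16 were higher and 4 lower in brain than in leg, 1.74% against 2.33% (1.53% higher, 0.798% lower). The medians of the short skips were 0.71, 0.49 and 0.19, against 0.24, 0.04 and 0.13 over all events. Of the other gene lists, energy metabolism had 6 of 14 skips higher and 1 lower in IFM than in leg and 4 higher and 2 lower in IFM than in brain. Ribosomal and translation genes had 10 of 30 higher and 4 lower than leg and 10 higher and 5 lower than brain, and calcium and membrane genes 4 of 11 higher and 1 lower than leg and 3 higher and 1 lower than brain. Synaptic genes had 1 of 7 higher and none lower in IFM than in either tissue, and none called for brain against leg. In IFM over leg, 147 skips were higher in both kinds of fit and 223 were higher in reads alone. In IFM over brain the numbers were 123 and 293, and in brain over leg 14 and 141. These counts rest on both libraries of a tissue. With 1 library of a compared tissue left out they were lower in every case, and few or none were left for brain against leg. The share called over all events fell there as well.

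**Figure D4:**
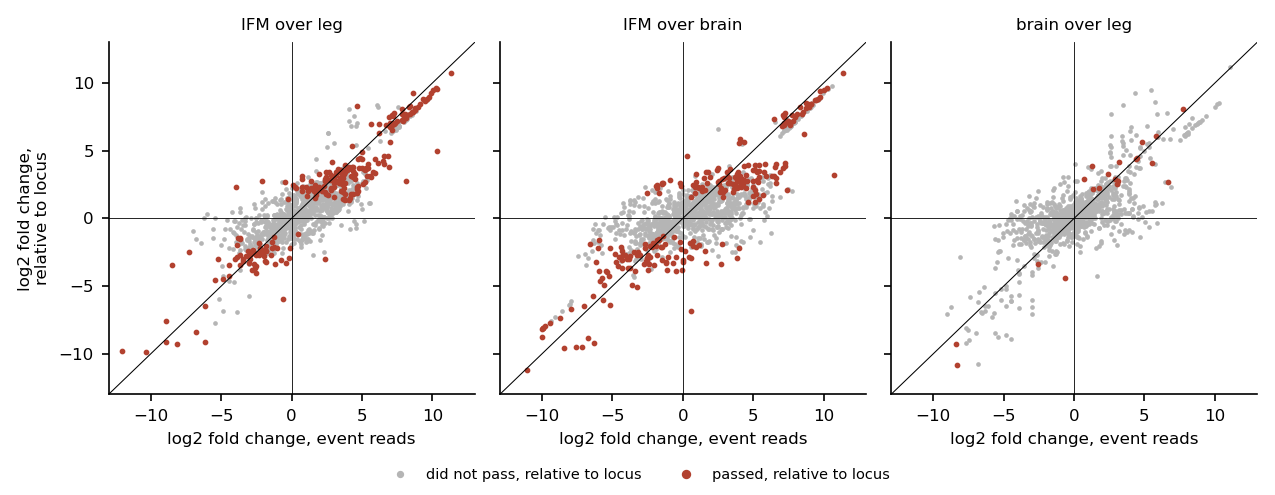
Each point is a short skip, with its log2 fold change in event reads on the x axis and its log2 fold change relative to the expression of its gene on the y axis, red where the y value passed the test at an adjusted p of 0.05. Points near the diagonal kept their difference with the offset, and points near the horizontal line at 0 lost it; 237, 254 and 20 points are red.

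For brain against leg, 20 skips passed relative to the locus, those in ND-13A, RpL37A and IA-2 named above among them. With 1 library of brain or leg left out, few or none of these calls were left. Others of the 20 were as follows. Phb2, prohibitin of the inner mitochondrial membrane, had 131 and 163 reads in IFM libraries, against 51 and 40 in brain libraries and 1 and 0 in leg libraries over a skip of 100 bases, with a brain to leg ratio of 64.9 and a counting interval of 11.4 to 2590. Srp14 of the signal recognition particle held 2 such skips, the larger with 93 and 65 reads in brain libraries and 2 and 3 in leg (4.45 relative to the locus, adjusted p = 0.0122). Piezo, a mechanosensitive channel, had 62 and 26 reads in brain libraries and 2 and 0 in leg, and Sec31, a COPII coat protein, 23 and 20 in brain and none in leg. The 4 that were lower in brain were in CG43707, CG1983, G6P and CG7607. CG43707 had 39 and 60 reads in IFM libraries, none in brain and 27 and 19 in leg, so that brain was at least 21.5-fold lower than leg, although its locus had 201 CPM in brain and 39.3 in leg. G6P, glucose-6-phosphatase, had 11 and 14 reads in brain libraries and 59 and 50 in leg (-3.34 relative to the locus, adjusted p = 0.0187).

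Some skips passed both fits in opposite directions, 2 for IFM against leg and 10 for IFM against brain. For IFM against leg these were the GstS1 skip named above and a skip in the cuticle protein gene Cpr49Aa, with -3.96 in reads and 2.30 relative to the locus (adjusted p = 0.00226 and 0.0423). Obsc, the obscurin of the sarcomere, had 30 and 69 reads in IFM libraries, against 2 and 5 in brain libraries and 41 and 35 in leg libraries, so IFM was higher than brain by 2.69 in reads and lower with a log2 value of -3.39 relative to a locus of 28598 CPM in IFM and 403 in brain (adjusted p = 0.0069 and 0.0151). The sodium pump subunits nrv2 and nrv3 did the reverse. nrv2 had 78 and 78 reads in IFM libraries and 118 and 135 in brain, lower in IFM with a log2 value of -1.66 in reads and higher by 1.87 relative to the locus (adjusted p = 0.0104 and 0.0189). CanA1 (a calcineurin catalytic subunit), Idh3a (isocitrate dehydrogenase), COX7AL2, Mhc, ninaE (rhodopsin) and 2 skips in CG7607 were the others.

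IFM had 15 short skips with at least 150 reads and no read in either other tissue, brain had 2 and leg none. Beside jp and Rbp9 they lay in Nt5c (a nucleotidase), UGP (UDP-glucose pyrophosphorylase, 2 skips), Zasp67 (a Z-disc protein), clu, CG18304, YME1L (a mitochondrial protease), mRpL38, AlaRS-m, CG4702, CG9410 and Strn-Mlck, and in a region where Pif1A and Pif1B overlap and the gene is uncertain. The skip in Nt5c had 187 and 306 reads in IFM libraries, at least 57.6-fold above leg and 80.8-fold above brain, with locus CPM of 387 in IFM, 87.7 for brain and 82.2 for leg. The skip in Strn-Mlck had all its 426 reads in IFM replicate 2. Zasp67 had 188 and 97 reads over the skip of a 33 base exon, and its locus was low elsewhere, at 1543 CPM in IFM, 11.2 for brain and 34.0 for leg. The overlap of Pif1A and Pif1B had 604 and 1238 reads in IFM libraries. IFM is also the deepest tissue, and an event at 0 in brain or leg may lie under the depth there. Of events of every type, 3525 in IFM, 1590 in brain and 1004 in leg had at least 150 reads. How many of those had no read elsewhere was not counted, so these numbers do not mark out short skips.

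Skips absent from IFM while the gene was read there were the other side of this. CG9953 had no read in IFM, 43 and 28 in brain libraries and 32 and 38 in leg libraries, with locus CPM of 155 in IFM, 54.7 in brain and 102 in leg. IFM was at least 66.6-fold lower than leg and 48.1-fold lower than brain. CG4462 had no read in IFM, 9 and 12 in brain libraries and 22 and 18 in leg libraries, with locus CPM of 85.0, 12.1 and 23.5 in IFM, brain and leg, and AlaRS-m had a skip of 2 exons with no read in IFM, 16 and 22 in brain libraries and 9 and 7 in leg libraries. AlaRS-m, a mitochondrial alanyl-tRNA synthetase, is thus among the genes with a skip read in IFM alone and with another read in brain and leg alone.

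Neighbouring small exons were skipped singly and together. In 347 combinations in 275 genes a short skip of 2 exons stood beside short skips of each of them, and 201 combinations had at least 50 reads. Among those 201, the joint skip was the best read of the 3 in 50, the upstream exon alone in 71 and the downstream exon alone in 79. The same joint skip could enter several combinations, as in CG30423, so these numbers do not count separate joint skips. Gpo1 was a case of the first kind, with 7662 joint reads in IFM, 403 for the upstream exon of 154 bases alone and 3351 for the downstream exon of 110 bases alone, against 69, 17 and 35 in brain and 153, 63 and 43 in leg. Neither Gpo1 exon is a multiple of 3, while the 264 bases of both are. In Mlp60A the joint skip of 194 bases had 2563 reads in IFM, against 8 for brain and 25 for leg, while its 97 base exons alone had 271 and 107 in IFM. ND-B17.2 had 1768 joint reads in IFM beside 978 and 166 for its exons alone. In Mical, which encodes an actin-oxidizing enzyme, the joint skip had 2662 reads in IFM against 3454 for the downstream exon alone and 5 for the upstream exon alone. RpS18 showed the other extreme, with 3581 reads in IFM for the downstream exon alone and 15 for both. In up the joint skip had 49 reads in IFM, against 398 and 2631 for its exons alone.

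Very small exons were rare among the left-out ones. Single exons of 30 bases or fewer numbered 40, and 9 of these skips had at least 50 reads. After SERCA the best read was in CG30423, where an annotated exon of 1 base on chromosome 2R was skipped with 45 and 128 reads in IFM libraries, against 219 and 160 in brain libraries and 160 and 156 in leg libraries. RpL5 (29 bases) had 19 and 51 reads in IFM libraries, against 118 and 214 in brain libraries and 27 and 74 in leg libraries. CG11052 (17 bases) had 35 and 42 in IFM libraries, against 0 and 1 in brain libraries and 127 and 110 in leg libraries. The others were in RpL18, lncRNA:roX2 (a dosage compensation RNA), CG7945, Saf-B and Orp8.

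Skip reads were few beside counts of the exon they leave out. Over short skips with at least 50 reads in a tissue, the median was 39.8 reads per 1000 counts of the left-out exon in IFM, 34.4 in brain and 31.0 in leg, against 9.84, 9.39 and 6.71 for longer skips. At least 100 per 1000 were reached by 12.5% of them in IFM, 14.3% in brain and 19.2% in leg. For GstS1 the leading skip had 34.5 per 1000 in IFM and for fln 33.2, both somewhat under the IFM median. The leading skip of Cpr47Ef had 74.1 per 1000 in IFM, 43.7 in brain and 271 in leg. Counts in exon bins add reads within the exon while skip reads must cross the junction, so the ratio is no estimate of the share of transcripts. These counts were summed over all left-out exons and not scaled by length. Only 22.1% of longer skips left out a single exon, with a median of 285 bases against 166 in short skips. The ratios of short and longer skips therefore cannot be compared as rates of skipping.

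The read ends that carried the skips were uneven and differed by tissue. Read end 1 gave 35.8% and 33.1% of short skip reads in the IFM libraries, against 45.7% and 45.1% in brain libraries and 41.0% and 40.3% in leg libraries. For longer skips it gave 53.3% and 52.5% in the IFM libraries, against 49.1% and 48.7% for brain and 49.6% and 49.6% for leg. In IFM the share followed the strand of the gene. Among short skips with at least 50 IFM reads, the median share of read end 1 was 78.0% for 306 on the plus strand and 9.62% for 426 on the minus strand, and 283 minus strand skips were under 20%. Brain had 52.7% and 43.8% on the plus and minus strands and leg 50.3% and 40.3%. Longer skips of IFM had the same split, 72.7% and 13.8%. fln, GstS1 and wupA lie on the minus strand, and read end 1 gave 6.36%, 2.04% and 10.4% of their IFM reads. Calls in event reads were close between strands, with 33.8% of 533 plus strand and 32.3% of 728 minus strand skips higher in IFM than in leg and medians of 0.99 and 1.05. The SERCA skip of 18 bases, also on the minus strand, came 99.5% from read end 1 over all tissues. With read end 1 only, 571 short skips were tested, and 291 were called for IFM against leg, 386 for IFM against brain and 153 for brain against leg. Over events of every type 46.5%, 67.8% and 35.6% passed in that setting. Of the named skips called with both ends and testable this way, 54 kept the call and direction for IFM against leg, 7 lost the call and the RpS3A skip turned, for IFM against brain 71 kept and 8 lost it, and for brain against leg 50 kept and 9 lost it. The Gasp skip lost its call for brain against leg (-1.23, adjusted p = 0.0875). Fits relative to the locus were not run by read end.

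**Figure D5:**
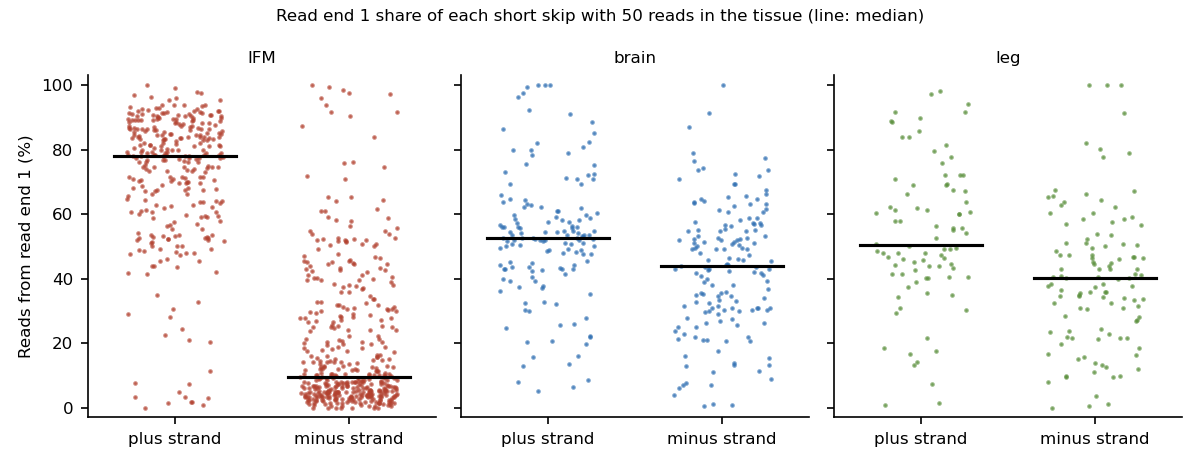
Each point is a short skip with at least 50 reads in the tissue, placed by the percent of its reads that came from read end 1 and split by the strand of the gene, with a line at the median. Plus and minus strand medians are 78.0% and 9.62% in IFM, against 52.7% and 43.8% for brain and 50.3% and 40.3% for leg.

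At a span of 499 bases, COX7B had 2657 and 3299 reads in IFM libraries, against 52 and 70 in brain libraries and 88 and 72 in leg libraries, and skips in ect and CG8360 followed in reads. At 500 bases, just outside, inaC (the eye protein kinase C) had 6 and 22 reads in IFM libraries, 176 and 121 in brain and none in leg, and Lsm12a had 10 and 33 in IFM libraries, against 17 and 25 in brain libraries and 10 and 20 in leg libraries. The shortest with at least 50 reads spanned 132 bases in Orp8 and 165 bases in ND-MLRQ and in the overlap of CG17768 and LSm-4. Across span classes the percent called for IFM against leg ran from 42.5% to 48.2%.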

How the data were processed

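The authors pseudoaligned each read end of 6 libraries with fortuna and deposited 12 tables of raw counts per unannotated event. They deposited 3 tables of raw counts per exon bin for DEXSeq, which served here as locus expression. Builds and tools come from the submitters' processing notes: BDGP6, STAR 2.7.3a, SAMtools 1.1, Subread 2.0.0 and DESeq2 1.32.0; the versions of fortuna and DEXSeq are not given in the sources used here. The 3 gene tables and the fold change and p-value columns hold the authors' own comparisons and were not used. In the exon tables the brain and leg columns carry codes that name neither tissue nor library; the tissue was taken from the group names in the headers of the tables that share a column.

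For event counts the quasi-likelihood test of edgeR 4.0.16 was run under R 4.3.3 (TMM factors, all libraries in 1 fit, tissue as factor, at least 50 reads, Benjamini-Hochberg at 0.05). Of the exon tables, tissue means of the summed bins in TMM-scaled CPM plus 0.1 entered as offset, on the log scale. Exon structure came from a later Ensembl annotation (BDGP6.54), by which 8256 short skips took their gene from transcripts and 32 from position. Event reads ran from 554656 to 3507067 per library, and summed exon counts from 67091219 to 177964590. Intervals are 95% and cover counting error only, because reads lack molecular identifiers. The scripts were tested on simulated data. Members and gene lists were chosen with earlier results of these data known. Genes were named by rule: the 10 most read skips per tissue, the 5 largest called changes per direction, the 10 genes with most skips at 150 reads, the 4 best read genes of each list, the 3 shortest and longest skips and the 3 just outside, and genes the study names; others in the text were chosen after their values were seen. Alternatives were DESeq2 1.42.0, other scalings, filters, offsets, span limits, read end 1 alone, a replicate block and each library left out. Python 3.11.15, pandas 2.3.3, scipy 1.17.1 and matplotlib 3.10.9 were used for summaries and figures.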

Additional observations from a re-analysis of the deposited data

How the results depend on the processing

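Limits lie mainly in 2 libraries per tissue and in depth. Leaving out 1 library gave 303 to 611 calls for IFM against leg and 428 to 776 for IFM against brain. For brain against leg it gave 182 to 264. Relative to the locus the calls were 71 to 275, 72 to 310 and 0 to 18 in that order. In place of 150 reads per tissue, the minimum was then 75 reads in the library of the tissue that remained. It was reached by 218 to 343 skips in IFM, 77 to 84 in brain and 44 to 49 in leg. Read shares were 7.99% to 8.90% in IFM, 6.43% to 7.65% in brain and 6.46% to 6.91% in leg. With read end 1 only, 571 skips were tested and 291, 386 and 153 were called for IFM against leg, IFM against brain and brain against leg. Over all events 46.5%, 67.8% and 35.6% passed there. In the same order, 161, 233 and 88 were called with spans under 300 bases. Under 700 bases the numbers were 968, 1229 and 521, and both follow from the number of skips taken. Relative to the locus, brain against leg gave 33 of 3434 skips at 10 reads, where 1.67% of all events passed. With the left-out exon as offset it gave 46 of 1146, where 5.34% of all events passed. At 750 reads 69, 5 and 4 skips remained in IFM, brain and leg. Shares were 9.46%, 8.20% and 8.82% when events were counted in place of reads, 2.32%, 2.03% and 1.71% under 300 bases, 13.2%, 11.5% and 12.3% under 700 bases, 5.67% in IFM, 6.57% in brain and 5.54% in leg with read end 1, which puts brain above IFM, and 7.63% in IFM and 5.82% in leg without the most read skip. The RpS3A skip turned to 0.089 for IFM over leg with read end 1, and the joint Mlp60A skip to -0.21 and -0.66 relative to the left-out exons for IFM over leg and over brain; the cause was not tested. Of other values for 391 comparisons of named skips, 2275 kept direction and side of the threshold and 143 lost the call, and with a library left out 1917 and 338, none reversed. Replicate numbers did not pair the tissues (correlations of 0.0115, 0.0124 and 0.0236), and a replicate block gave 530, 687 and 296 calls, or 197, 223 and 25 relative to the locus. Over all events 39.7%, 60.2% and 33.6% passed with that block, or 20.4%, 22.1% and 3.5% relative to the locus.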

Other observations

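A few short skips were read in only 1 of the 2 libraries of their tissue. The Strn-Mlck skip between 15959317 and 15959789 of chromosome 2R had 0 and 426 reads in IFM libraries, and sals, a regulator of thin filament length, had 409 and 0 over a skip from 11438099 to 11438424 on chromosome 3R. In brain, 14-3-3zeta had 0 and 394 reads between 10105825 and 10106289 of chromosome 2R, all from read end 1, and CG8726 had 0 and 199. They stand apart from the general spread, since the median absolute log2 ratio of the 2 libraries was 0.33 in IFM (732 skips with 50 reads), 0.49 in brain (304) and 0.42 in leg (201). The skips in Strn-Mlck, sals and 14-3-3zeta passed the test in reads for IFM against brain (adjusted p = 0.0247, 0.019 and 0.0108) on 1 library each, and those in Strn-Mlck for IFM against leg and 14-3-3zeta for brain against leg (adjusted p = 0.0453 and 0.0355).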
